A study of Homo sapiens with 3 samples.

Results

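NF-kB feedback and acute-phase genes were described in AB12, a mouse malignant mesothelioma cell line, with and without a hairpin against Nf2, the gene of the tumour suppressor merlin. The genes were taken by symbol from a named list of 10, of which 9 had a row among the 13936 genes of the deposited table: Nfkbia, Nfkbiz, Tnfaip3, Ptgs2, Icam1, Saa3, Lcn2, Ltf and C3. Birc3 was not analysed here. All 9 passed the filter on low values, a mean of at least 10 scaled counts, which left 12813 genes. The list was chosen by function and by measured values of these same libraries, namely the scaled counts in shNF2 against shSC and the difference of Saa3 and Ltf between the shNF2 libraries. The values of the 9 genes are therefore given as a description, and no p-value of a single one of them is printed. Counts of the 9 below a threshold are given, and nothing is read from them.

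The tested cells were labelled shNF2 and gave 2 libraries, numbered 21 and 20 and called library 21 and library 20 here. The comparison was with 1 library labelled shSC, which the column names mark as WT and which served as the control hairpin. All cells were cultured in RPMI medium with 10% serum and no further agent is named. The labels give no meaning for 21 and 20, do not say whether each line was a clone or a pool, and do not say that the libraries came from separate cultures, so the spread between them may be technical. Although the samples are registered as human, the table carries mouse Ensembl identifiers, and the genes were read as mouse genes.

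NF-kB is a family of transcription factors held in the cytoplasm by IkB proteins until ligands such as TNF or interleukin 1 trigger a kinase complex that has IkB destroyed. Among its targets are genes of its own inhibitors, which close a feedback loop, and genes of inflammation. Acute-phase proteins are secreted during infection and injury, mainly by the liver but also by epithelial cells, under NF-kB together with STAT3 and C/EBP factors.

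Reads assigned to genes numbered 26829163 in library 21, 25837151 in library 20 and 29532600 in shSC. Nf2 had 458 and 486 scaled counts in libraries 21 and 20, against 1539 in shSC, so the targeted transcript was lower in both libraries labelled shNF2. The mesothelial marker Msln had 8977 and 9722 scaled counts in libraries 21 and 20 and 7397 in shSC, and 5 of 10 mesothelial markers had a row; Wt1 and Upk3b were not analysed here. The summed level of these 5 was 33759 and 39947 scaled counts in libraries 21 and 20 and 43899.9 in shSC. Krt8, Krt18 and Krt19 were below shSC in both shNF2 libraries, Krt19 with 2618 and 3016 scaled counts in libraries 21 and 20 and 5113 in shSC, and Krt7 rose, with 183 and 289.8 in libraries 21 and 20 and 49.7 in shSC (limma adjusted p = 0.0119). Library 21 differed from library 20 in relation to base composition: the median log2 difference, library 21 minus library 20, was 0.15 among the eighth of genes poorest in GC and -0.25 among the eighth richest in GC, with human transcripts of the same symbol as stand-ins for 80.8% of tested genes. Library 21 was the one that stood apart: against shSC these medians were 0.19 and -0.31 in library 21, and 0.02 and -0.05 in library 20. The ratios of library 21 to shSC given below were not corrected for this, and its part in them was not tested. The gene models Gm42418 and Gm26917, which are known to collect ribosomal RNA reads, also differed. Gm42418 held 0.498% and 1.44% of the reads in genes in libraries 21 and 20, and 0.731% in shSC.

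The 9 genes did not move as a block. Ptgs2 was lower and C3 higher than shSC in both shNF2 libraries. Saa3, Icam1 and Nfkbia were above shSC in library 20 but not in library 21, Ltf was far below shSC in library 21 and close to it in library 20, and Nfkbiz and Tnfaip3 stayed near the shSC level. In shNF2 against shSC, limma called 0 of the 9 at an adjusted p below 0.05, and 0.843% of all tested genes. In that fit over all genes 2 of the 9 were at an unadjusted p below 0.05, where 9.27% of all tested genes were. edgeR and DESeq2 each called 0 of the 9, with 1 of the 9 at an unadjusted p below 0.05. As the list was chosen with this comparison known, these counts are no test of the genes and nothing is read from them.

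**Figure D1:**
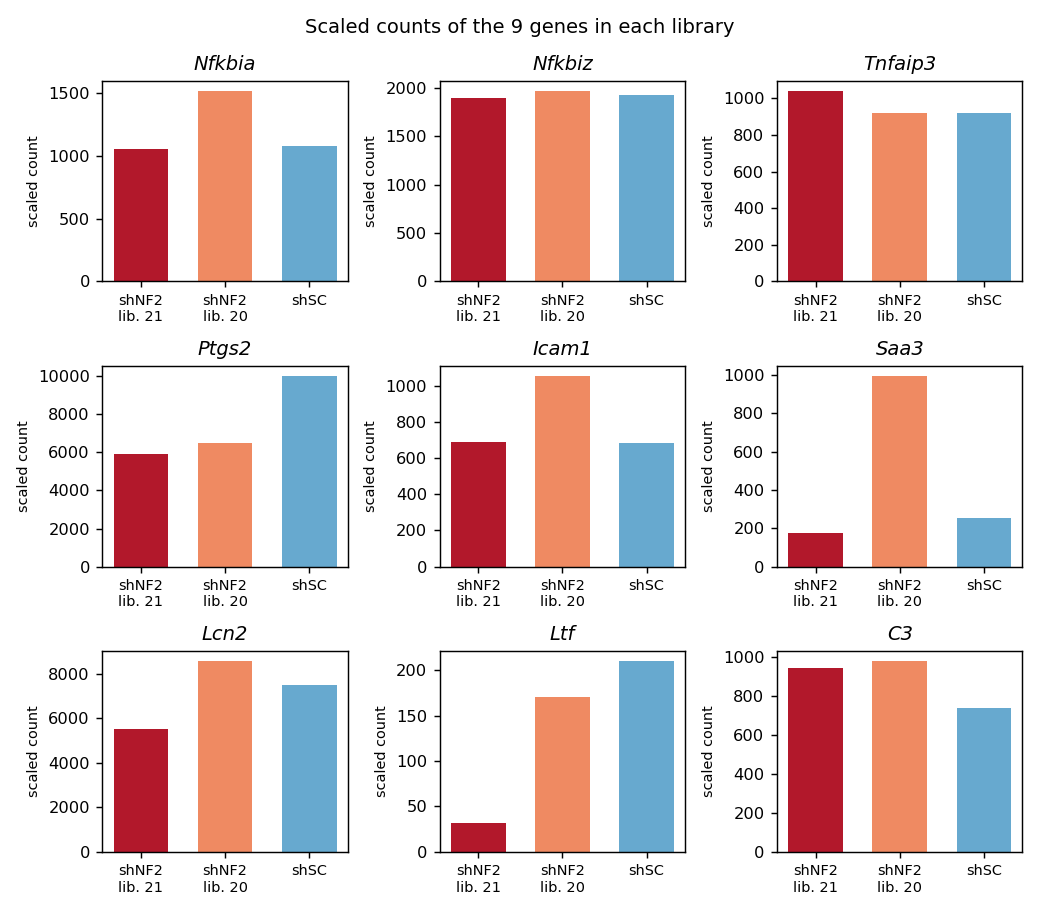
Scaled counts (vertical axes, linear, each starting at 0) of the 9 genes in shNF2 library 21, shNF2 library 20 and the single shSC library, 1 bar per library and no error bars. Saa3 stands out in library 20 at 996 scaled counts and Ltf in library 21 at 32.1, whereas Ptgs2 is lower in both shNF2 libraries than in shSC.

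Among the feedback inhibitors, Nfkbia encodes IkB-alpha, which binds NF-kB dimers and returns them to the cytoplasm. Nfkbia had 1054 scaled counts in library 21 and 1519.9 in library 20, against 1079.8 in shSC. Library 20 was thus the high one, with a ratio to shSC of 1.41 and an exact 95% counting interval of 1.30 to 1.52, and library 21 lay beside shSC with a ratio of 0.976 (0.897 to 1.06). Here and below such intervals cover counting error only, not the spread between cultures. The log2 fold change over both libraries was 0.23 ± 0.25 (SE, from 2 shNF2 libraries and 1 shSC library).

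Nfkbiz encodes IkB-zeta, a nuclear IkB protein that acts as a coactivator at a subset of NF-kB targets, Lcn2 among them. It had 1891 scaled counts in library 21 and 1969 in library 20, against 1923 in shSC. The shSC value lay between those of the shNF2 libraries, and the log2 fold change was 0.0047 ± 0.21 (SE). Tnfaip3 encodes A20, a ubiquitin-editing enzyme that shuts off signalling from TNF and Toll-like receptors to the kinase complex. It had 1042 scaled counts in library 21 and 918 in library 20, against 920.1 in shSC, so library 21 was the higher one by a ratio to library 20 of 1.13 (95% counting interval 1.04 to 1.24). Its log2 fold change was 0.09 ± 0.23 (SE).

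Of the inflammatory effectors, Ptgs2 encodes cyclooxygenase 2, the inducible enzyme of prostaglandin synthesis. Ptgs2 had 5907 scaled counts in library 21 and 6504 in library 20, against 10021 in shSC. Both shNF2 libraries were below shSC, with ratios of 0.589 (95% counting interval 0.571 to 0.608) and 0.649 (0.629 to 0.670), and they lay close to each other. The log2 fold change was -0.69 ± 0.21 (SE), and 9.83% of all tested genes had one of larger size.

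Icam1 encodes an adhesion molecule to which leukocyte integrins bind. Icam1 had 688 scaled counts in library 21 and 1055 in library 20, against 684 in shSC. As with Nfkbia, library 20 alone was above shSC, at a ratio of 1.54 (95% counting interval 1.40 to 1.70), and library 21 matched it at 1.01 (0.906 to 1.12). The log2 fold change over both libraries was 0.32 ± 0.28 (SE).

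Among the acute-phase genes, Saa3 encodes serum amyloid A3, a form made outside the liver in mice. Saa3 had 173 scaled counts in library 21 (178 reads) and 996 in library 20 (952 reads), against 253 in shSC (260 reads). The shNF2 libraries lay on opposite sides of shSC, at ratios of 0.683 (95% counting interval 0.562 to 0.830) and 3.93 (3.43 to 4.53). Their mean was 584 ± 582 scaled counts (SD, n = 2 libraries), so that the log2 fold change over both, 0.71 ± 0.66 (SE), describes neither library. In library 20 alone the log2 fold change of Saa3 was 1.97, and 1.02% of all tested genes had one of larger size, in either direction. At a limit of 2-fold, 2.55% of all tested genes were higher in library 20 than in shSC.

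Lcn2 encodes lipocalin 2, which binds bacterial siderophores and so withholds iron. Lcn2 had 5511 scaled counts in library 21 and 8592 in library 20, against 7490.5 in shSC. It too was below shSC in library 21 and above it in library 20, but by far less than Saa3, at ratios of 0.736 (95% counting interval 0.711 to 0.762) and 1.15 (1.11 to 1.18). The log2 fold change over both libraries was -0.12 ± 0.26 (SE).

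Ltf encodes lactoferrin, an iron-binding protein of secretions and of neutrophil granules. Ltf had 32.1 scaled counts in library 21 (33 reads) and 170.5 in library 20 (163 reads), against 210.3 in shSC (216 reads). Both shNF2 libraries were below shSC, library 20 only just, at a ratio of 0.811 (95% counting interval 0.657 to 0.998), and library 21 at 0.153 (0.102 to 0.221). The log2 fold change was -1.49 ± 0.67 (SE) over both libraries, -2.68 in library 21 and -0.30 in library 20. Of all tested genes 3.28% were at least 2-fold lower in library 21 than in shSC. In either direction, 0.359% had a change in library 21 larger in size than that of Ltf.

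C3 encodes complement component 3, the protein on which all routes of complement activation converge. C3 had 941 scaled counts in library 21 and 980.2 in library 20, against 739 in shSC. Both shNF2 libraries were above shSC and close to each other, at ratios of 1.27 (95% counting interval 1.16 to 1.40) and 1.33 (1.20 to 1.46). The log2 fold change was 0.38 ± 0.23 (SE), and 28.8% of tested genes had one of larger size.

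**Figure D2:**
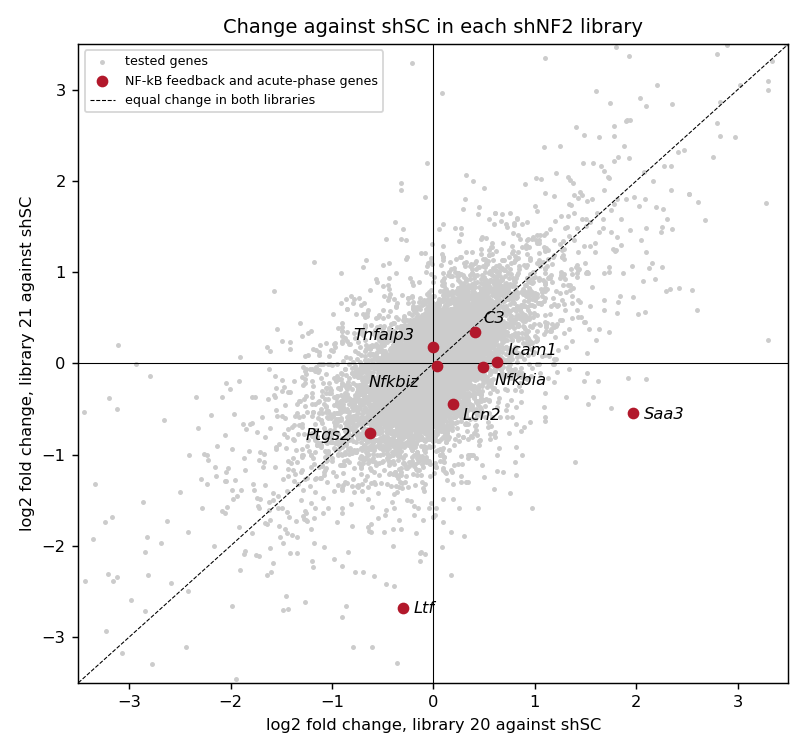
Log2 fold change against the shared shSC library in library 21 (vertical axis) and in library 20 (horizontal axis) for all tested genes (grey) and the 9 genes (red); genes beyond the axis limits are not drawn. Ptgs2 and C3 lie near the dashed line of equal change, Saa3 lies far below it at 1.97 in library 20 and -0.55 in library 21, and Ltf lies far below it at -2.68 in library 21.

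Both axes of this plot share the shSC library, so a chance value there shifts a gene along the dashed line. The vertical distance from the line is free of shSC and equals the difference between the shNF2 libraries. By that measure 8 of the 9 genes were lower in library 21 than in library 20, where 49.2% of all tested genes were, and Tnfaip3 was the exception. Saa3 and Ltf, the genes whose difference helped to draw up the list, were past 2-fold, against 3.83% of all tested genes in either direction. The log2 difference of Saa3, library 21 minus library 20, was -2.52, and 0.125% of tested genes had one of larger size. That of Ltf was -2.37, with 0.156% of tested genes beyond it.

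A group of 3 genes followed at smaller differences: Lcn2 at a ratio of library 21 to library 20 of 0.641 (95% counting interval 0.620 to 0.664), Icam1 at 0.652 (0.591 to 0.718) and Nfkbia at 0.693 (0.640 to 0.750). Of all tested genes 10.8%, 11.7% and 15.9% differed by more than Lcn2, Icam1 and Nfkbia. Ptgs2 had a ratio of 0.908 (0.876 to 0.941), and for C3 and Nfkbiz the interval included 1. With 1 library on each side none of these differences has a test. After the median of genes of like GC content was taken away, the log2 difference was -0.54 for Lcn2, -0.40 for Icam1, -0.43 for Nfkbia and -2.27 for Ltf, against -0.64, -0.62, -0.53 and -2.37 before. C3, close to 0 before, turned from -0.06 to 0.04, so that 6 of the 8 genes with a stand-in transcript were lower in library 21, against 7 of these 8 before. Saa3 had no stand-in transcript.

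**Figure D3:**
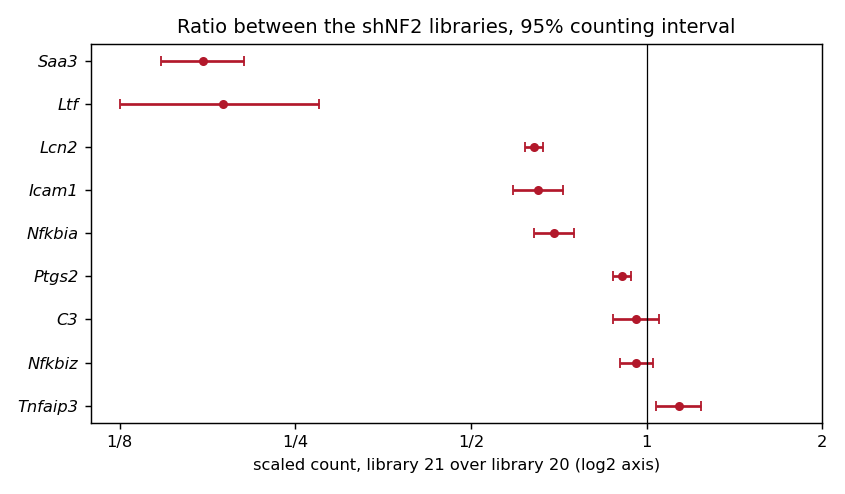
Ratio of scaled counts in library 21 to those in library 20 (horizontal log2 axis) for the 9 genes, with exact 95% counting intervals as bars and equal counts marked by the vertical line. Saa3 at 0.174 and Ltf at 0.188 stand apart from Lcn2, Icam1 and Nfkbia, which lie between 0.641 and 0.693.

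Lcn2 and Ltf are also stored in neutrophil granules, and markers of blood cells were therefore looked up. Of 15 neutrophil markers 3 had a row, and their summed level was 37.9 and 45.0 scaled counts in libraries 21 and 20 and 40.9 in shSC. S100a8 had 19.4 and 11.5 scaled counts in libraries 21 and 20 and 8.76 in shSC, and Ly6g had 9.72 and 26.2 in libraries 21 and 20 and 20.4 in shSC. Of 12 macrophage markers 3 had a row, with a sum of 6410.4 and 5982 in libraries 21 and 20 and 6085 in shSC, nearly all of it Mrc1. Within these, Lyz2 had 108 and 260.5 scaled counts in libraries 21 and 20 and 56.5 in shSC, and its part in the differences of Saa3 and Lcn2 was not tested. Ptprc, Mpo, Elane and Adgre1, which define these cells, and all 5 hepatocyte markers were not analysed here. In bulk RNA, fewer cells that transcribe a gene and less RNA per cell cannot be told apart.

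The genes whose pair of fold changes lay nearest to that of Saa3, among 10062 other genes with a mean of at least 100 scaled counts, were the ribosomal RNA gene models Gm26917 and Gm42418, at distances of 1.02 and 1.09 on the log2 scale. They were followed by Mab21l3, Tesc and Gmfg at 1.11 to 1.14, so that no gene of that level came within 1 unit of Saa3. Gm42418 had 129800 and 389987 scaled counts in libraries 21 and 20 and 210202 in shSC, the same order of libraries as Saa3. Whether the ribosomal RNA content of the libraries plays a part in the values of Saa3 was not tested. Nearest to Ltf were Nppb, which encodes a natriuretic peptide, at 0.55, Plet1 at 0.60 and Ncf4, which encodes a subunit of the phagocyte NADPH oxidase, at 0.63. Csf3, which encodes the neutrophil growth factor G-CSF, followed at 0.87 and had 141 and 377 scaled counts in libraries 21 and 20 and 498 in shSC. A pair of fold changes from 3 libraries is a thin measure of likeness.

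Beyond the 9 genes, 14 lists of other parts of the pathway held 210 genes, of which 150 had a row and 142 were tested. Of these 1 rose and 3 fell in shNF2 (limma, adjusted p below 0.05), which is 2.82% of them. Over all tested genes 0.843% passed, with 0.414% higher and 0.429% lower. At an unadjusted p below 0.05 were 23 of the 142, where 9.27% of all tested genes were. The lists were drawn up with earlier results of these data known, so these counts are no test of the pathway. The median log2 fold change over the 142 was 0.05, and -0.0043 over all tested genes. Each of these 4 calls was lost with quantile normalization (adjusted p of 0.496 to 0.523) and without a variance trend (0.222 to 0.281). Over all other alternatives run their adjusted p was at most 0.0474, other than for Ptgs1 with TMM.

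Tnip3 encodes ABIN-3, a partner of A20 and a negative regulator of NF-kB. Tnip3 had 2112 and 2419 scaled counts in libraries 21 and 20, against 5974 in shSC. Both shNF2 libraries lay far below shSC, and Tnip3 fell by 1.40 ± 0.21 on the log2 scale (SE; limma adjusted p = 0.00839). No other of the 14 tested genes of its list passed, and 2 were at an unadjusted p below 0.05, beside the 9.27% of all tested genes. Besides Tnip3 this was Cyld, which encodes another inhibitor and went the other way, named here after its values were seen. Its log2 fold change was 0.85, with 1.03 in library 21 and 0.67 in library 20. The list was drawn up as negative regulators but also held Rnf31, Rbck1 and Sharpin, genes of a ubiquitin ligase that promotes NF-kB signalling.

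Sele encodes E-selectin, which catches leukocytes on endothelium, and was tested in the list of adhesion relatives and partners of Icam1. Sele had 35.0 and 12.6 scaled counts in libraries 21 and 20, against 231 in shSC. It fell by 3.39 ± 0.55 on the log2 scale (SE; limma adjusted p = 0.0104). Vcam1, another adhesion gene under NF-kB, had 284 and 215 scaled counts in libraries 21 and 20 and 196 in shSC and did not pass; it was chosen after its values were seen.

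Ptgs1 encodes cyclooxygenase 1, the constitutive relative of the enzyme encoded by Ptgs2. Ptgs1 had 233 and 219 scaled counts in libraries 21 and 20, against 569.6 in shSC. It fell by 1.33 ± 0.27 on the log2 scale (SE; limma adjusted p = 0.0410), a call lost with TMM scaling (adjusted p = 0.0607). The genes of both cyclooxygenases thus had lower values in both shNF2 libraries than in shSC. No other gene of the 9 tested prostaglandin genes passed, and with Ptgs1 3 were at an unadjusted p below 0.05, beside the 9.27% of all tested genes. The others, named after their values were seen, were Ptgds and Ptger1. Ptgds had 3, 34 and 0 reads in library 21, library 20 and shSC, and Ptger1 had 6, 6 and 20.

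Csf1, which encodes the macrophage growth factor M-CSF, was the 1 gene that rose. Csf1 had 1454 and 1304 scaled counts in libraries 21 and 20, against 604 in shSC, and it rose by 1.19 ± 0.23 on the log2 scale (SE; limma adjusted p = 0.0276). It belonged to the list of other textbook NF-kB targets, of which 22 were tested and 11 were at an unadjusted p below 0.05, beside the 9.27% of all tested genes. That list was drawn up with earlier results of these data known, so the count is no test of NF-kB targets. These 11 went both ways, and they are named here after their values were seen. Csf1, Gbp2, Ccl2, Gadd45b, Cxcl10 and Ccl5 were higher in shNF2, while Cxcl2, Csf3, Junb, Nos2 and Csf2 were lower. Over the 22 targets the median log2 fold change was 0.16, with 11 above shSC in both shNF2 libraries, 8 below it in both and 3 on opposite sides.

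The machinery upstream of these genes did not pass the test. Of 5 NF-kB subunit genes 0 passed and 0 were at an unadjusted p below 0.05, with log2 fold changes of 0.20 for Nfkb1 and -0.11 for Rela. Among 5 other IkB genes, 0 passed and 1 was at an unadjusted p below 0.05, Bcl3 at -0.81, while Nfkbie was at 0.40. Of 10 genes of the IKK and TAK1 kinases 0 passed and 0 were at an unadjusted p below 0.05, with Map3k7, which encodes TAK1, at 0.44 and Map3k14, which encodes NIK of the alternative pathway, at 0.56. Of 16 adaptor and IAP genes 0 passed and 1 was at an unadjusted p below 0.05, Traf1 at -0.78; Birc2, which encodes the close relative cIAP1 of the protein of Birc3, was at -0.40. The calls by edgeR and DESeq2 held none of these genes either.

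Receptors and ligands that feed the pathway did not pass either. Of 21 receptor genes 17 were tested and 0 passed, with 2 at an unadjusted p below 0.05. Il1rl1, the receptor of interleukin 33, had a log2 fold change of -1.52, and Cd14, a co-receptor of Tlr4, -0.64. The libraries differed: Il1rl1 was at -0.71 in library 21 (45 reads) and -2.32 in library 20 (13 reads), with 74 reads in shSC. Cd14 was at -0.96 in library 21 and -0.32 in library 20. Of 16 ligand genes 4 had a row and 3 were tested; Tnf and Il1b were not analysed here. Il33, which encodes an alarmin that activates NF-kB through Il1rl1, had 3046 and 2747 scaled counts in libraries 21 and 20, against 5538 in shSC. Its log2 fold change of -0.94 ± 0.21 (SE) missed the threshold with limma (adjusted p = 0.0647), and passed with DESeq2 (0.0299) and without the filter on low values (0.0164). Il18 was at 0.86.

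The partners of the acute-phase genes did not pass. Of 14 genes of IL-6 type receptors, STAT3, C/EBP factors and Socs3, 0 passed and 0 were at an unadjusted p below 0.05, with Jak1 at a log2 fold change of 0.45 and Osmr, the receptor of oncostatin M, at 0.54. Of 27 other acute-phase genes 7 had a row and 5 were tested; 0 passed and 1 was at an unadjusted p below 0.05, Lbp, which encodes the lipopolysaccharide-binding protein, at -0.89. Saa1 and Saa2 were not analysed here. Of 11 tested complement genes 0 passed and 0 were at an unadjusted p below 0.05, with Cr1l at -0.38 and C1s1 at -0.51 beside the 0.38 of C3. Of 3 tested iron partners of Lcn2 and Ltf 0 passed and 0 were at an unadjusted p below 0.05, with the transferrin receptor gene Tfrc at 0.27 and Lrp1, a receptor for lactoferrin, at -0.43. edgeR and DESeq2 called none of these receptor, acute-phase, complement and iron genes.

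**Figure D4:**
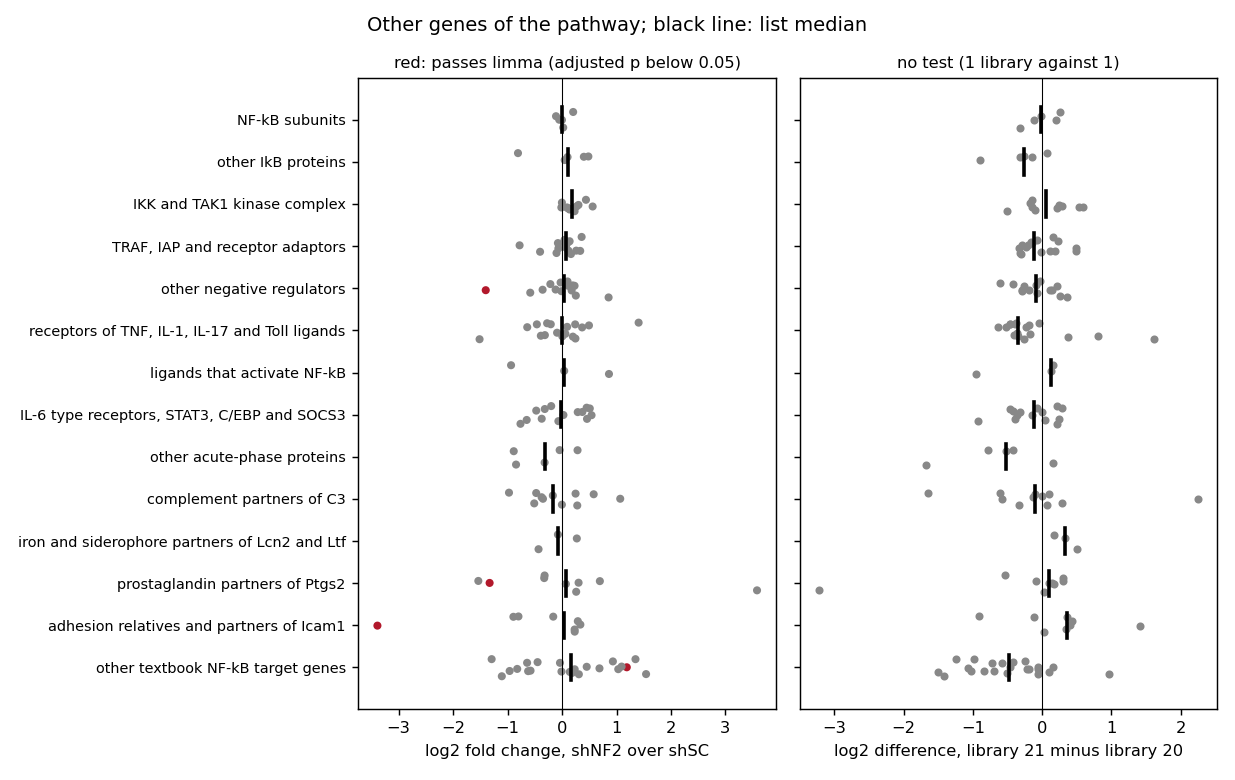
Log2 fold change of shNF2 over shSC (left) and log2 difference of library 21 minus library 20 (right) for the tested genes of the 14 other lists, 1 point per gene, with list medians as black lines and genes that passed limma's test in red. On the left the 4 red points are Tnip3, Ptgs1 and Sele below 0 and Csf1 above it, and on the right the median of the textbook NF-kB targets lies at -0.48.

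The difference between the shNF2 libraries was also seen in NF-kB targets outside the 9 genes. Of the 22 other textbook targets 19 were lower in library 21 than in library 20, with a median log2 difference of -0.48, where 49.2% of all tested genes were lower and the median was 0.0062. Over all 142 genes of the other lists 62.7% were lower in library 21, with a median of -0.14. Of the 5 other tested acute-phase genes 4 were lower, with a median of -0.52. Among the 17 receptor genes 14 were lower, with a median of -0.35, and among 5 NF-kB subunit genes 3 were lower, with a median of -0.0098. Other lists went the other way: of the adhesion relatives and partners of Icam1 2 of 8 were lower in library 21 (median 0.36), of the prostaglandin partners of Ptgs2 3 of 9 (median 0.09) and of the iron partners of Lcn2 and Ltf 0 of 3 (median 0.34). Icam4, of the same family as Icam1, was lower in library 21 as Icam1 was, at -0.91, and is named after its values were seen. After the median of genes of like GC content was taken away, 18 of the 22 targets remained lower in library 21, with a median of -0.43, and 14 of the 17 receptor genes, with a median of -0.25. By the same step 57.7% of the 137 pathway genes with a stand-in remained lower, and their median moved to -0.07, against -0.13 before. The NF-kB subunit genes went to 1 of 5 lower with a median of 0.14, and the 5 other IkB genes to a median of -0.01, against -0.26 before. Of the 4 other acute-phase genes with a stand-in 3 were lower before and after, with a median of -0.37, against -0.47 before. As 1 library stands on each side, these counts describe 2 libraries and have no test. The lists were also drawn up with earlier results of these data known, so the counts are no independent support for the difference.

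Of the 22 targets 5 were at least 2-fold lower in library 21 than in library 20 and 0 at least 2-fold higher, where 2.01% and 1.82% of all tested genes were; they are named here after their values were seen. They were Ccl20, Csf3, Ccl2, Ccl7 and Cxcl1, all genes of secreted chemokines or growth factors. Ccl20 had 1672 scaled counts in library 21 and 4764 in library 20, against 2844 in shSC, on opposite sides of shSC as Saa3 and Lcn2 were. Ccl2, which draws monocytes, had 599 in library 21 and 1417 in library 20, against 361 in shSC. Cxcl1, which draws neutrophils, had 3849 in library 21 and 7874 in library 20, against 8481 in shSC. Against the shared shSC library these 3 genes therefore took 3 different courses, while each was lower in library 21 than in library 20.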

How the data were processed

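The authors deposited 1 table of gene signal for 3 libraries, named as scaled counts. Per the submitters' processing notes, cutadapt 1.6, STAR 2.5.0a, HTSeq 0.5.3, DESeq 1.22.1 and the build mm10 were used, with no role given; how strand was handled in counting was not stated. Each column came out as whole reads divided by 1 factor per library (100% of values within 0.001 reads). Every gene had at least 15 reads over the libraries, which means that a filter had been applied before deposit. A further 4 rows without a gene took up 47.7%, 48.7% and 48.6% of reads (library 21, library 20, shSC) and were not used.

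shNF2 was compared with shSC by limma 3.58.1 (R 4.3.3) on log2(scaled count + 1) with a mean-variance trend and Benjamini-Hochberg adjustment over 12813 genes. The added 1 understates changes of low genes. Only the shNF2 libraries give a spread (1 residual degree of freedom), which limma moderates across genes; shSC was assumed to vary alike. An exact permutation test of these libraries cannot go below 0.333. edgeR 4.0.16 and DESeq2 1.42.0 on the recovered reads, other scalings, filters and pseudocounts, and each shNF2 library left out were alternatives. The script was tested on simulated data. Ratios of libraries carry exact conditional binomial intervals. The members and lists were chosen with earlier results of these data known. Named were the 9 genes, list genes that passed or else up to 2 with the smallest p per list, and the 5 genes nearest to Saa3 and to Ltf.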

Additional observations from a re-analysis of the deposited data

How the results depend on the processing

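The counts of genes that rose and fell in shNF2 were 53 and 55 over all tested genes. They were 110 and 122 without the filter on low values, 0 and 0 with quantile normalization (882 genes at an unadjusted p below 0.05) and 0 and 0 with limma without a variance trend (1036), and edgeR called 29 higher. Among the other pathway genes 1 rose and 3 fell; without the filter 3 rose, with Ccl2 and Gbp2 beside Csf1, and 5 fell, with Il33 and Cxcl2 added. With quantile normalization and without a variance trend 0 rose and 0 fell (17 and 24 at an unadjusted p below 0.05). Genes at least 2-fold higher and lower in library 21 than in library 20 numbered 233 and 258, against 100 and 130 with a pseudocount of 10, and 405 and 403 without the filter, as both settings act on low genes. Fth1 had a log2 fold change of -0.32, and 0.056 with quantile normalization; the cause was not tested. The log2 difference between the shNF2 libraries ran from -2.53 to -2.45 for Saa3 and from -2.38 to -2.10 for Ltf over the alternatives run. For C3 it turned from -0.06 to 0.04, and for Ptgs2 it was -0.29, after the GC median was taken away, an alternative chosen after the data had been seen, against -0.14 for Ptgs2 before. Leaving out a shNF2 library gives the fold change of the other, with no test: for Saa3 -0.55 or 1.97. No paired analysis was possible because the shNF2 and shSC labels share no replicate number.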
